A study of Mus musculus with 36 samples.

Results

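IAP (intracisternal A-particle) elements are mouse endogenous retroviruses of the ERVK family. They were taken here as every counted repeat family with a name that begins with IAP and with ERVK as its family, which gave 25 of the 1561 repeat families. Of these, 10 are internal regions (names that end in -int or _I) and 15 are LTRs (long terminal repeats). The count of a family sums reads over all its copies, so that no single copy or genome position can be named. All 25 families passed the filter on low counts.

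RNA was measured in MEF (mouse embryonic fibroblast) cells that carry a doxycycline-inducible dCas9 together with a constitutively expressed guide RNA against the major satellite repeats (MSR) of pericentric heterochromatin. The MSR-dCas9-Control line expresses dCas9 without an effector and the MSR-dCas9-Activator line a fusion of dCas9 to the transcriptional activator VPR. Each line was sampled uninduced, induced by 10 ng/ml doxycycline, and at 4 times once doxycycline had been washed out (3, 6, 12 and 24 h), with 3 replicates in each of 12 groups. Induction lasted 24 h in the Control line and 6 h in the Activator line. Effector and length of exposure therefore cannot be told apart in the induced groups or at the 4 later times. The paper reports that most Activator cells were apoptotic or dead at the last time point, while Control cells stayed viable. It reports no loss of viability at the end of induction and gives no values for the times in between. Late differences between the lines therefore cannot be told apart from effects of cell death. Both lines are hygromycin-selected mixed cultures and not single clones. P-values measure the spread between these replicate cultures.

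An IAP provirus is transcribed from its LTR, which acts as promoter, into an RNA that covers the internal region with its gag and pol genes. In somatic mouse cells most copies are kept silent by DNA methylation and by H3K9 methylation, which KRAB zinc finger proteins direct through Trim28 (KAP1) and Setdb1. LTRs left behind by recombination between the ends of a provirus far outnumber the internal regions and can be read through from neighbouring transcripts.

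Gene counts ranged from 27376846 to 57371803 per library, repeat families took 17.6% to 30.6% of all counts, and the 25 IAP families together held 40635 to 202518 counts. Normalised counts are scaled by genes alone, with TMM factors, to the mean gene library. The targeted major satellite GSAT_MM reached 151521, 99120.4 and 1059658 normalised counts in the induced Activator libraries and 1363, 1318 and 1404 in the induced Control libraries. It was already at 4233, 2234 and 3849 in uninduced Activator libraries, against 1562, 1423 and 1431 in uninduced Control libraries. Of 8 fibroblast markers, 7 were abundant (summed level 11217.5 to 34608 CPM over the 36 libraries) and Thy1 was at or near 0 CPM.

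IAP RNA was higher in the Activator line than in the Control line from induction onwards, and the difference was widest 12 h after doxycycline removal. The summed IAP level in uninduced Control libraries was 1585, 1254 and 1626 CPM, that is, IAP counts scaled to the gene counts of the library, and in uninduced Activator libraries 1659, 1614 and 1901. The uninduced lines thus overlapped. After induction the sum was 2017, 1998 and 2702 in the Activator line and 1593, 1746 and 1700.0 in the Control line. At 12 h it was 4204, 4615 and 4777 in the Activator line and 1551, 1306 and 1331 in the Control line. From induction on, every Activator library lay above every Control library of its time point. The ratio of the group means, Activator over Control, was 1.16 before induction, 1.33 after it, then 1.88, 2.24, 3.25 and 2.26 at the 4 later times. The Control line stayed between 1396 CPM (at 12 h) and 1775 CPM (at 24 h) in its group means.

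**Figure D1:**
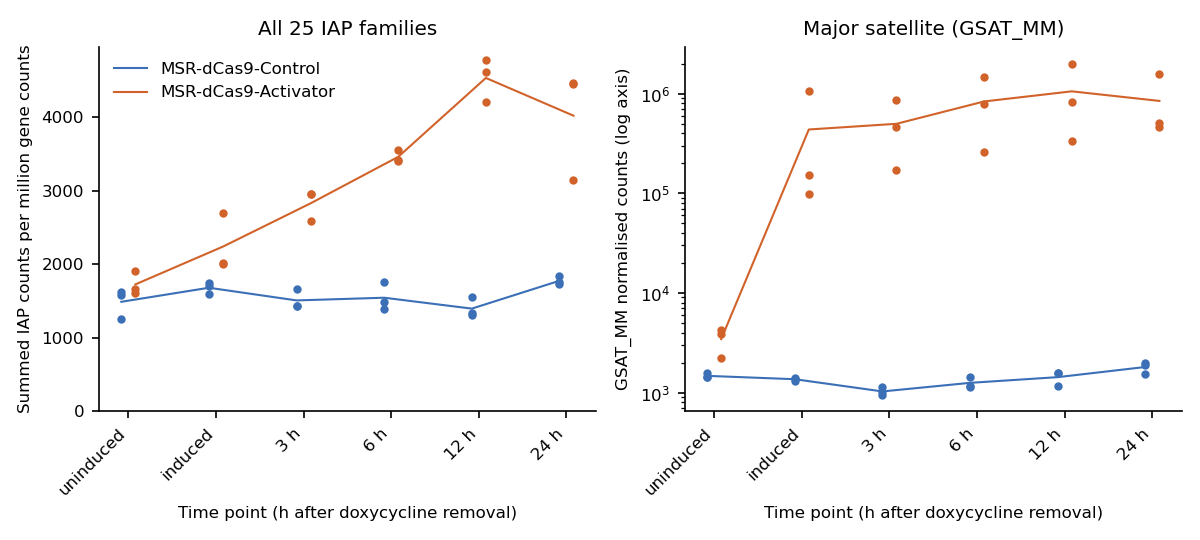
Left, summed level of the 25 IAP families in CPM (scaled to gene counts); right, normalised counts of the major satellite GSAT_MM on a log axis, for each library (points) and group mean (lines) of both lines at 6 time points. The Activator mean of IAP climbs to 4532 at 12 h while the Control means stay between 1396 and 1775, and GSAT_MM is spread far more widely among Activator replicates than IAP.

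The replicates of the Activator line varied far less in IAP than in the targeted satellite. In induced Activator libraries the highest GSAT_MM level was 10.7 times the lowest, while the highest summed IAP level was 1.35 times the lowest. At 24 h, replicate 2 of the Activator line had the lowest sum, 3148 against 4466 and 4443 in the other replicates, and also the lowest minor satellite (SYNREP_MM) level, 10860.4 against 59339 and 34180.4 normalised counts. IAPEz-int, an internal region, held 64.9% to 72.0% of all IAP counts of a library.

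A family was called changed when its adjusted p-value (edgeR quasi-likelihood test, Benjamini-Hochberg over the 1492 repeat families tested) stayed under 0.05 with a change past 0.5 on the log2 scale. Before induction no IAP family was called between the lines by edgeR or by DESeq2, and 1 family passed an unadjusted p of 0.05 in both tools. With only the uninduced libraries in the edgeR fit, 1 IAP family was called higher (0.492% of all families). The background of families called higher there was 0.067%. The median log2 fold change of the 25 families was 0.13, beside 0.03 over all families tested. The libraries of the lines did not overlap for 2 families, IAP1-MM_I-int and IAPEY4_LTR, beside 3.42% of all families with every Activator library on top.

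After induction 13 of the 25 IAP families were higher in the Activator line and none lower, where 20.2% of all families tested were called higher and 12.3% lower. Their median log2 fold change was 0.52, beside 0.00 over all families. With only the induced libraries in the fit, 7 were called higher (12.9% of all families). At 3 h, 22 families were called higher (background 31% higher, 15.8% lower). By 6 h there were 24 (34.4% and 11.2%). All 25 were called at 12 h (45.4% and 5.76%), and 21 at 24 h (29% and 2.28%). No IAP family was called lower at any of these times. From 3 h to 24 h the medians of the 25 families were 1.03, 1.19, 1.68 and 1.12, beside 0.11, 0.21, 0.45 and 0.24 over all families tested. In all, 12 families were called at each of the 5 time points from induction on, and 9 at 4 of them. A further 2 were called at 3, and IAPLTR4 and IAP1-MM_LTR at 2 and 1. No such tally was made over all families, so these counts have no background beside them.

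The libraries of the Activator line all lay above those of the Control line for 13 families in induced cells and for 23, 25, 25 and 22 families at the 4 later times. The shares of all families tested with such a separation were 20%, 35.8%, 44.2%, 59.9% and 44.8%. For 1 family, IAP1-MM_LTR, the induced Activator libraries all lay below the Control libraries. In the Activator line the highest group mean lay at 12 h for 23 families, at 6 h for IAPEY3C_LTR and at 24 h for IAPEY4_I-int.

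**Figure D2:**
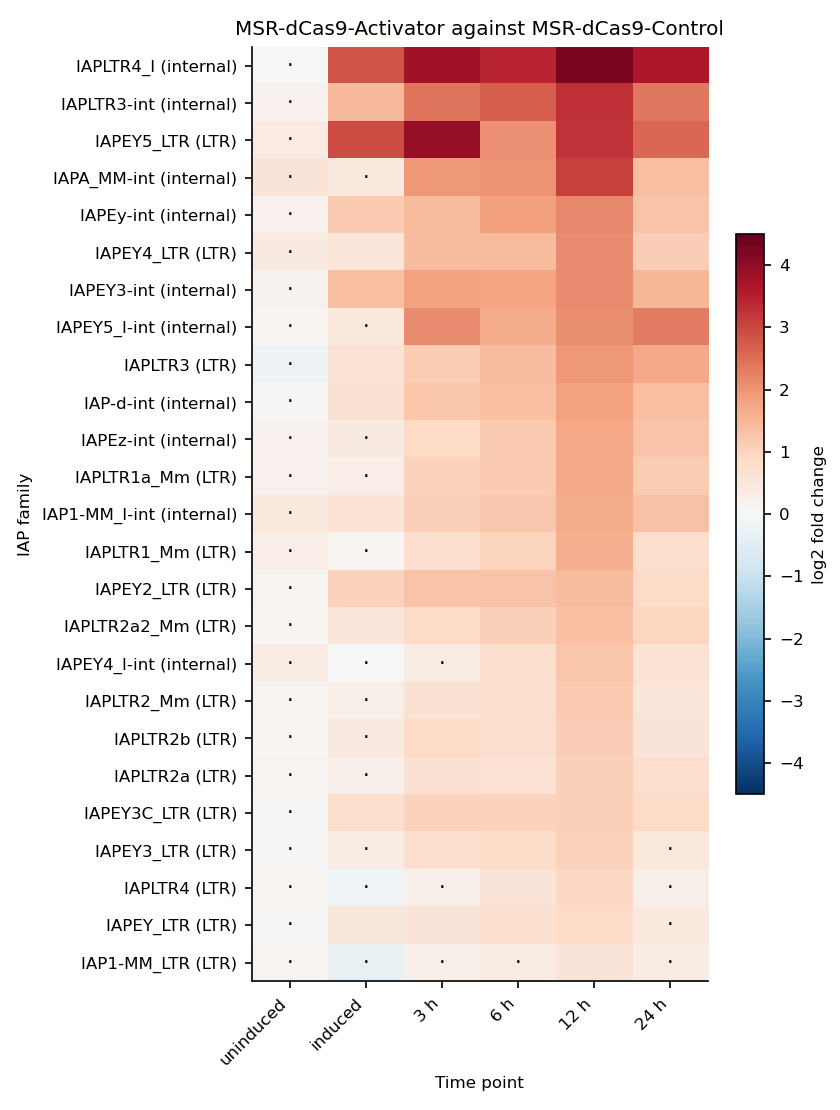
Log2 fold change of MSR-dCas9-Activator against MSR-dCas9-Control for each of the 25 IAP families (rows, ordered by the value at 12 h) at 6 time points (columns); a dot marks a family that was not called. No family is called before induction and all 25 are called at 12 h, with internal regions filling most of the upper rows.

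IAPEz-int, the internal region that carries most IAP counts, had 44408, 35893 and 46123 normalised counts in uninduced Control libraries and 47271, 44735 and 54034 in uninduced Activator libraries. After induction it had 44425, 49740.0 and 47884 in the Control line and 57993, 55318 and 75525 in the Activator line. The induced libraries did not overlap, but the log2 fold change of 0.40 ± 0.12 (SE) was under the limit of 0.5, so that the family was not called (adjusted p = 0.00497, edgeR). In the Activator line its level then went from 84437, 83581 and 75407 (3 h) to 99482, 97022 and 103230.1 (6 h). At 12 h it stood at 125952, 137609.7 and 141300.0, against 44134, 37694 and 38186 in the Control line. All Activator libraries at 12 h were thus far above all Control libraries, by a log2 fold change of 1.75 ± 0.13 (SE) with an adjusted p of 8.88e-25 (edgeR). At 24 h it was at 135821, 92293 and 134706 in the Activator line and 48381, 47626 and 51817 in the Control line, with replicate 2 the lowest Activator library but still above every Control library. The log2 fold change was 1.29 ± 0.12 (SE, adjusted p = 3.21e-16, edgeR).

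The LTRs IAPLTR1_Mm and IAPLTR1a_Mm, which flank IAPEz-int in proviruses, had the highest mean counts among LTRs. IAPLTR1_Mm had 3848, 3608 and 4161 normalised counts in induced Control libraries and 3031, 4117 and 5323 in induced Activator libraries, which overlapped. At 12 h it had 2802, 2165 and 2452 in the Control line and 6629, 8115 and 8452 in the Activator line. That separation was complete, with a log2 fold change of 1.64 ± 0.23 (SE, adjusted p = 1.01e-06, edgeR). At 24 h IAPLTR1_Mm had 4137, 4023 and 4089.8 in the Control line and 7127, 6033 and 8174 in the Activator line, a log2 fold change of 0.79 ± 0.23 (SE, adjusted p = 0.00632, edgeR). This call was lost when scaled to all repeat counts (0.40, adjusted p = 0.139, edgeR) or to mitochondrial mRNAs (0.54, adjusted p = 0.068, edgeR). In the Control line it was among the more variable members, with 3803, 1967 and 4038 before induction and 2364, 2528 and 4360.3 at 6 h.

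IAPLTR1a_Mm had 2085, 2156 and 2215 normalised counts in induced Control libraries and 2203, 2275 and 3531 in induced Activator libraries. Activator replicate 3 alone stood apart there, and the family was not called (log2 fold change 0.29 ± 0.14, SE; adjusted p = 0.0778, edgeR). At 12 h it had 1867, 1451 and 1651 in the Control line and 4626, 5572 and 5898 in the Activator line. At 24 h the Control line had 2132, 2079.9 and 2173 and the Activator line 4812, 3797 and 5439. Both times were fully separated, with log2 fold changes of 1.70 ± 0.15 and 1.13 ± 0.14 (SE).

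IAPEY4_I-int was the second most abundant internal region. Of the 10 internal regions it had the lowest log2 fold change after induction, at 12 h and at 24 h. Its induced Activator libraries, at 3370.1, 7879 and 5978 normalised counts, lay on both sides of the Control libraries at 6166, 5674 and 5429, with a log2 fold change of -0.03 ± 0.25 (SE). At 12 h it had 8136, 10178 and 10588 in the Activator line and 5361, 3475 and 3321 in the Control line. At 24 h it had 9723, 9990.4 and 10399.7 in the Activator line and 6529, 6965 and 6173 in the Control line, so that both lines had their highest mean at that time. The log2 fold change was 1.23 ± 0.25 at 12 h and 0.62 ± 0.25 at 24 h (SE, adjusted p = 0.0479 at 24 h, edgeR). The call at 24 h was lost when any 1 of 5 libraries of the 2 groups was left out, with adjusted p-values up to 0.116 (edgeR). Scaled to all repeat counts, both calls of IAPEY4_I-int were lost (0.59 at 12 h and 0.23 at 24 h).

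**Figure D3:**
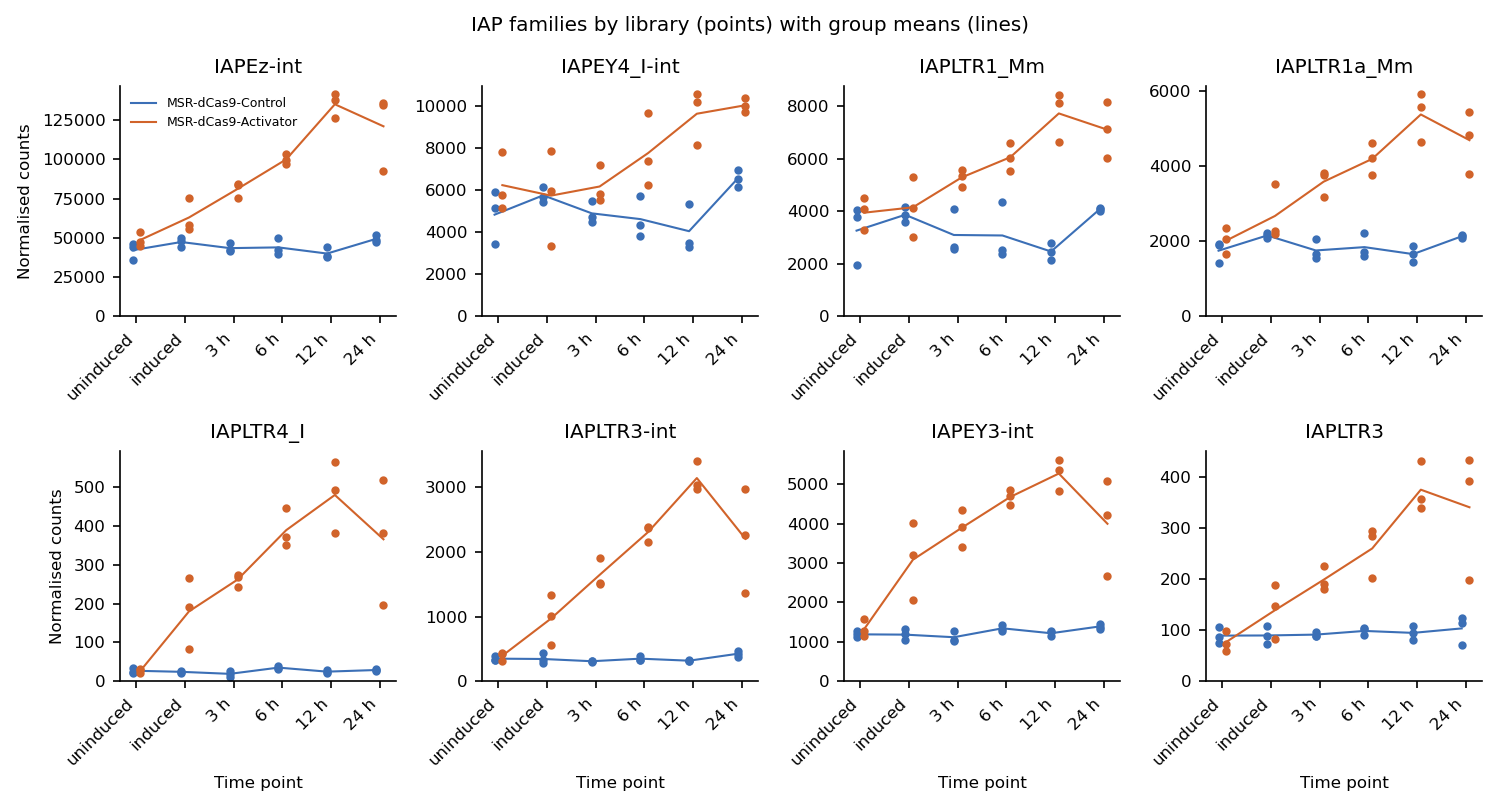
Normalised counts of 8 IAP families at 6 time points in each library (points) with group means (lines) of MSR-dCas9-Control and MSR-dCas9-Activator. Abundant families (upper row) overlap between the lines at induction, or nearly so, and separate later, while 3 of the 4 families in the lower row, all but IAPLTR3, are already apart at induction.

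Leaving out families that averaged under 100 normalised counts, the internal regions IAPLTR4_I, IAPLTR3-int and IAPA_MM-int had the largest fitted differences at 12 h. IAPLTR4_I reached that level through the Activator line, since it averaged 155 normalised counts over the 36 libraries but 26.6 over the 18 Control libraries. It had 24.8, 22.2 and 35.0 normalised counts in uninduced Control libraries and 29.4, 21.0 and 30.3 in uninduced Activator libraries. After induction it had 22.2, 26.0 and 24.9 in the Control line and 191, 82.4 and 266 in the Activator line. From overlapping levels before induction the Activator libraries had all moved above the Control libraries, by a log2 fold change of 2.82 ± 0.26 (SE, adjusted p = 6.4e-16, edgeR). The Activator libraries held 492, 380.3 and 565 at 12 h, against 24.4, 28.3 and 21.8 in the Control line, and 518, 197 and 381 at 24 h, against 30.4, 29.6 and 26.9. These were 18.7-fold and 12.4-fold differences, or log2 fold changes of 4.22 ± 0.25 and 3.63 ± 0.25 (SE). Like those of IAPEY5_LTR below, these fold changes rest on few Control counts, fewer than 40 in every library.

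IAPLTR3-int had 328, 391 and 333 normalised counts in uninduced Control libraries and 317, 426 and 445 in uninduced Activator libraries. After induction the Control line had 279.8, 433 and 323 and the Activator line 1017, 555 and 1341. The lines no longer overlapped, and the log2 fold change was 1.47 ± 0.25 (SE, adjusted p = 4.47e-05, edgeR). At 12 h IAPLTR3-int was at 3044, 2982 and 3411 in the Activator line and 316, 309.7 and 331 in the Control line, a log2 fold change of 3.30 ± 0.26 (SE). At 24 h it was at 2981, 1361 and 2272 against 429, 473 and 377, with a log2 fold change of 2.36 ± 0.25 (SE). Activator replicate 2 was the lowest of its group at 24 h, as for the summed level.

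IAPLTR3, the LTR named as its partner, averaged 163 normalised counts over all libraries but 94.4 in the Control line. It had 72.9, 107 and 88.5 normalised counts in induced Control libraries and 147, 82.4 and 187 in induced Activator libraries. These overlapped, and the call at that time (log2 fold change 0.61 ± 0.23, SE; adjusted p = 0.0214, edgeR) was lost when Control replicate 1 or 3 or Activator replicate 1 or 3 was left out (0.46, 0.51, 0.52 and 0.41 on the log2 scale). At 24 h it had 391, 197 and 432 in the Activator line and 71.1, 114 and 124 in the Control line, with no overlap and a log2 fold change of 1.71 ± 0.22 (SE, adjusted p = 3.38e-10, edgeR).

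IAPEY3-int, an internal region with higher counts than these, had 1037, 1326 and 1188 normalised counts in induced Control libraries and 3199, 2050.2 and 4007 in induced Activator libraries. All Activator libraries lay above the Control libraries, with a log2 fold change of 1.36 ± 0.16 (SE, adjusted p = 2.19e-10, edgeR). At 12 h the Activator line had 5356, 4838 and 5617 and the Control line 1274, 1137 and 1246. At 24 h the Activator line had 5081, 2681 and 4225 and the Control line 1326, 1387 and 1461, still with no overlap. The log2 fold change was 2.11 ± 0.16 at 12 h and 1.51 ± 0.16 at 24 h (SE).

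The remaining families were named for their values after these had been seen. IAP1-MM_LTR and IAPLTR4 were called at the fewest time points. IAP1-MM_LTR had 194, 188 and 257 normalised counts in induced Activator libraries and 264, 270.0 and 273 in induced Control libraries, below in every library but not called (log2 fold change -0.35 ± 0.17, SE; adjusted p = 0.0824, edgeR). It was called only at 12 h, at a log2 fold change of 0.57 ± 0.17 (SE). IAPA_MM-int, an internal region, varied widely within the Activator line. It had 83.2, 280.2 and 418 normalised counts in its induced libraries and 179, 647 and 808 at 24 h, and replicate 1 was the lowest in both groups. At 24 h its Control libraries, at 205, 183 and 223, overlapped with the Activator libraries. At 12 h it had 524, 929 and 897 against 110.1, 72.1 and 90.3 in the Control line, a log2 fold change of 3.09 ± 0.51 (SE). IAPEY5_LTR and IAPEY5_I-int had fewer than 100 normalised counts on average, and IAPEY5_LTR had 70.9, 43.9 and 116 in induced Activator libraries. In induced Control libraries it had 4.76, 16.4 and 7.77, so that its log2 fold change between the lines, 2.95 ± 0.37 (SE), rests on few counts.

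Within the Activator line, 12 of the 25 IAP families were called higher in induced than in uninduced cells and none lower (edgeR, background 19.6% higher, 12.4% lower). The median log2 fold change was 0.49, beside 0.02 over all families. When scaled to mitochondrial mRNAs, 4 IAP families were called higher and 4 lower, where 7.12% of all families were higher and 48.7% lower. Within the Control line no IAP family was called on induction by edgeR or DESeq2 (background 0%). There, 3 families passed an unadjusted p of 0.05 in each tool, and the median was 0.13, beside 0.02 over all families. The difference between these changes was tested directly. It was called for 9 IAP families, all with the larger rise in the Activator line (background 11.8% higher, 9.85% lower), and the median was 0.31, beside -0.02 over all families. For IAPLTR4_I it was 2.82 ± 0.40, for IAPLTR3-int 1.30 ± 0.35 and for IAPEY3-int 1.21 ± 0.22 on the log2 scale (SE), with adjusted p-values of 8.26e-08, 0.0105 and 4.7e-05 (edgeR). Scaled to mitochondrial mRNAs 3 IAP families were called (3.49% of all families higher), and the call of IAPEY3-int was lost (0.82, adjusted p = 0.0548, edgeR). For IAPEz-int it was 0.19 ± 0.17 (SE, adjusted p = 0.436, edgeR). Without induced Activator replicate 3, the highest of its group in summed IAP, 6 families were called, and without replicate 2 of that group 11. These contrasts and those between the lines share the induced Activator libraries.

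After doxycycline removal the Activator line went on to higher IAP levels. Whether the reported cell death has a part in this rise was not tested. From induced to 24 h, 14 families were called higher and none lower (edgeR; background 26.9% higher, 0.737% lower), with a median of 0.62, beside 0.38 over all families. Scaled to all repeat counts, 3 were called higher (4.44% of all families), and scaled to mitochondrial mRNAs 22 (73.3%). IAPEz-int rose by a log2 fold change of 0.94 ± 0.12 (SE), IAPLTR3 by 1.28 ± 0.21 and IAPLTR4_I by 1.03 ± 0.21. In contrast IAPEY3-int, which had changed early, gave 0.38 ± 0.16 (SE, adjusted p = 0.0387, edgeR) and was under the limit. In the Control line no IAP family was called from induced to 24 h by edgeR or DESeq2 (background 0%), and none passed an unadjusted p of 0.05 in either tool.

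The change from uninduced to 24 h was larger in the Activator line than in the Control line for 15 IAP families and smaller for none (edgeR; background 19.9% higher, 0.871% lower). The median of this difference was 0.87, beside 0.21 over all families tested. IAPLTR4_I gave 3.64 ± 0.39, IAPLTR3-int 2.19 ± 0.35, IAPLTR3 1.93 ± 0.32 and IAPEz-int 1.08 ± 0.17 on the log2 scale (SE). Scaled to mitochondrial mRNAs 7 IAP families were called (5.11% of all families higher), and the call of IAPEz-int was lost (0.79, adjusted p = 0.141, edgeR). IAPEY4_I-int, with 0.28 ± 0.35, and IAPLTR1_Mm, with 0.51 ± 0.32 (SE), were not called. Without uninduced Control replicate 2, IAPLTR1_Mm was called, at 0.76. These values share the uninduced libraries with those on induction.

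Between 12 h and 24 h the Activator line had lower levels in 24 of the 25 families, with a median log2 fold change of -0.27, beside -0.13 over all families, in a contrast added after the values had been seen. Of these, 1 was called, IAPEy-int, an internal region with 2974, 2877 and 3145 normalised counts at 12 h and 2556, 1256 and 2179.9 at 24 h (edgeR; background 2.82% lower, 0.804% higher). Its log2 fold change was -0.60 ± 0.15 (SE, adjusted p = 0.0151, edgeR), and all 3 libraries at 24 h lay below those at 12 h. In the Control line the median over the same interval was 0.28, beside 0.07 over all families. No family was called there (background 0%), and 10 IAP families passed an unadjusted p of 0.05 (edgeR), where 56 of all 1492 did. The mean summed IAP level fell from 4532 to 4019 CPM in the Activator line and rose from 1396 to 1775 in the Control line. The Activator sums were 4204, 4615 and 4777 CPM at 12 h and 4466, 3148 and 4443 at 24 h. The fall in the mean thus came largely from replicate 2 at 24 h. The smaller ratio of the means at 24 h reflects that fall and the rise in the Control line.

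Internal regions differed more between the lines than LTRs did. At induction the median log2 fold change was 0.64 for the 10 internal regions and 0.41 for the 15 LTRs, at 12 h 2.09 and 1.18, and at 24 h 1.35 and 0.79. For 7 IAP types the table holds an internal region and an LTR of matching name, and the ratio of their counts was formed within each library, where scaling cancels. Normalised levels were not divided by length, so only changes in a ratio can be read and not its size.

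For IAPLTR4_I over IAPLTR4 the ratio was 0.10 ± 0.02 (SD, n = 3) in uninduced Activator libraries and 0.11 ± 0.02 in uninduced Control libraries. After induction it was 0.74 ± 0.32 and 0.0893 ± 0.0075, and at 12 h 1.21 ± 0.08 and 0.12 ± 0.03. The Control ratios rest on few counts, since IAPLTR4_I had 28, 27 and 16 raw counts in induced Control libraries. The induced lines were fully apart, with an exact permutation p of 0.1, the smallest that 3 against 3 libraries allow. For IAPEy-int over IAPEY_LTR it was 3.44 ± 0.11 in the Activator line and 1.39 ± 0.04 in the Control line at 12 h. For IAPEY3-int over IAPEY3_LTR it was 7.60 ± 0.75 and 3.63 ± 0.21.

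Altogether, the ratio of internal region to LTR was higher in all Activator libraries than in all Control libraries for 5 of the 7 types from induction to 12 h, and for 4 at 24 h. It was lower in all Activator libraries for IAPEY4 and IAPEY5 in induced cells and at 3 and 12 h, and for IAPEY4 also at 6 and 24 h. The IAPEY5 ratios rest on few counts, since IAPEY5_LTR had 6, 17 and 5 raw counts in induced Control libraries. At 3 h these were 11, 2 and 3. For IAPEY4_I-int over IAPEY4_LTR it was 12.7 ± 1.5 in the Activator line and 23.5 ± 2.7 in the Control line at 12 h (SD, n = 3). Before induction 2 of the 7 types were apart, both with the Activator line higher, and 5 overlapped. No exact p adjusted over the 7 types could go below 0.1.

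**Figure D4:**
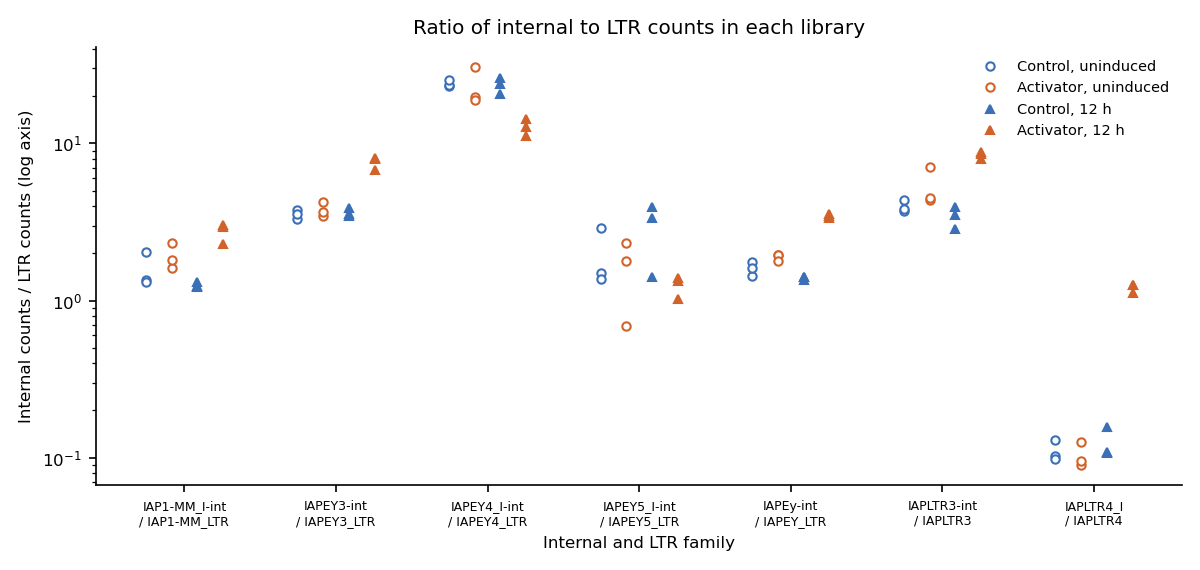
Ratio of internal counts to LTR counts in each library, on a log axis, for 7 IAP types in uninduced cells (open circles) and at 12 h (triangles) in both lines. At 12 h the Activator libraries lie above the Control libraries in 5 types and below them in IAPEY4 and IAPEY5. The ratios of IAPEY5, and those of IAPLTR4 outside the Activator line at 12 h, rest on few counts.

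Other endogenous retroviruses were also higher in the Activator line, by smaller medians. At 12 h the median log2 fold change was 1.68 for IAP, 0.89 for 254 other ERVK families, 0.92 for 138 ERV1 families and 0.64 for 109 ERVL families. At 24 h these were 1.12, 0.52, 0.54 and 0.41, and after induction 0.52, 0.35, 0.38 and 0.13. Summed counts at 12 h were 3.25 times as high in the Activator line as in the Control line for IAP. For other ERVK, ERV1 and ERVL families they were 1.79, 2.11 and 1.53 times as high. After induction these ratios were 1.33 for IAP and 1.22, 1.39 and 1.11 for the other sets, so that ERV1 lay above IAP. Called higher after induction were 52% of IAP, 38.6% of other ERVK, 41.3% of ERV1 and 21.1% of ERVL families. The sum of IAP over that of other ERVK within a library was 0.183, 0.199 and 0.191 in the Activator line and 0.113, 0.101 and 0.102 in the Control line at 12 h. Before induction it was 0.131, 0.140 and 0.131 and 0.130, 0.104 and 0.123. The lines were apart at both times, by a narrow margin before induction, and overlapped in induced cells, where the range was 0.121 to 0.155 in the Activator line and 0.123 to 0.132 in the Control line. These medians describe the sets, and whether IAP stands apart from them was not tested.

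**Figure D5:**
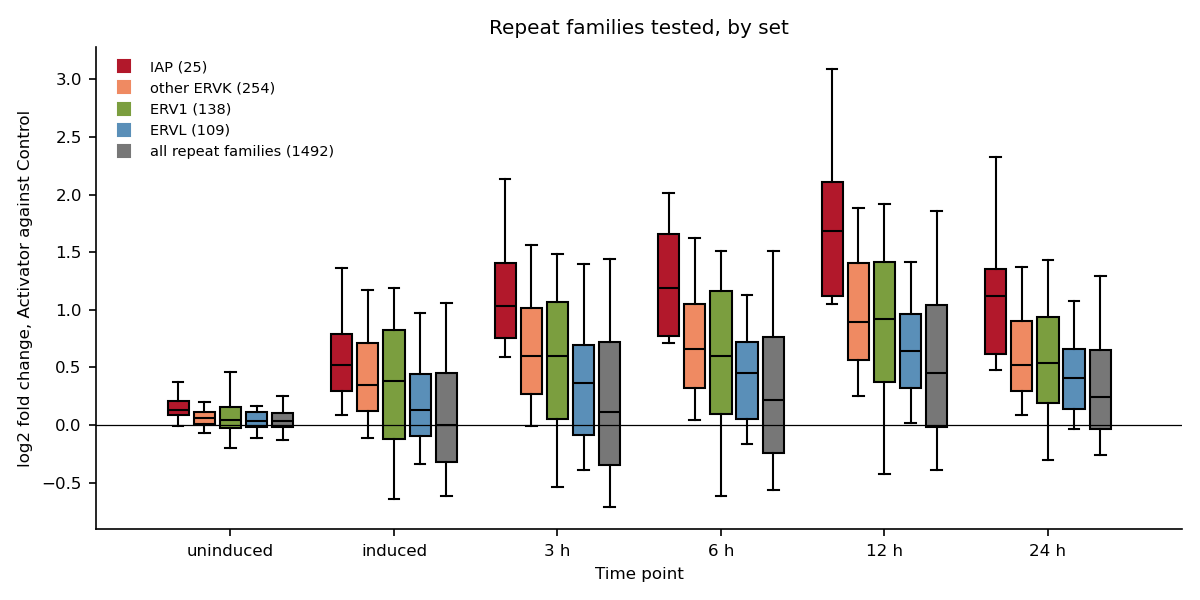
Log2 fold change of MSR-dCas9-Activator against MSR-dCas9-Control for the families of each set at 6 time points (boxes: quartiles with the median; whiskers: the central 80% of families); the number of families is in the legend. The IAP median is the highest at each time point, from 0.13 before induction to 1.68 at 12 h.

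Genes known to act in the silencing of IAP were measured in the same libraries. A gene was called at an adjusted p under 0.05 (edgeR over 28542 genes), more than 2-fold and a mean above 100 normalised counts. Background shares at these limits are of all 28542 genes, including those under that mean, which could not be called. They are thus lower than the shares among genes above that mean. Of 32 silencing genes, none was called higher and 2 lower in induced Activator cells against induced Control cells (background 2.77% higher, 5.79% lower). These were Dnmt3b, a de novo DNA methyltransferase, at 138 ± 54.0 against 418 ± 23.5 normalised counts (mean ± SD, n = 3; log2 fold change -1.64 ± 0.21, SE), and the zinc finger gene Gm15446, at -1.15 ± 0.17 (SE). On the adjusted p alone, with no limit on size or level, 2 were higher and 12 lower (background 31.6% and 25.8%). Setdb1, an H3K9 methyltransferase, was among the lower ones, at -0.98 ± 0.15 (SE). For the difference between the lines in the change on induction, 0 silencing genes were called higher and 1 lower (633 and 1571 of 28542 genes).

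At 12 h, where the IAP difference was widest, 10 of the 32 silencing genes were called lower and 1 higher (background 10.4% and 4.49%). Setdb1 then had 1349.5 ± 378 normalised counts in the Activator line and 4389 ± 107 in the Control line (mean ± SD, n = 3), a log2 fold change of -1.72 ± 0.15 (SE). Trim28 was at -0.05 ± 0.08 (SE) and was not called. At 24 h 7 were called lower and 2 higher (background 3.31% and 3.62%). Dnmt1, the maintenance DNA methyltransferase, had the largest fall, from 11178 ± 501 in the Control line to 4881 ± 203 in the Activator line (log2 fold change -1.19 ± 0.10, SE). Its partner Uhrf1, the remodeller Hells, the HP1 genes Cbx3 and Cbx5, the methyltransferase Ehmt1 and Rif1 were called lower too, from -1.17 for Cbx3 to -1.02 for Ehmt1 on the log2 scale. Morc2a had the largest rise at 24 h (1.10 ± 0.10, SE), followed by Fam208a (1.04 ± 0.13, SE), a subunit of the HUSH silencing complex with which Morc2a acts. These are contrasts between the lines. For the difference between the lines in the change from uninduced to 24 h, no silencing gene was called (858 of 28542 genes higher, 794 lower). On the adjusted p alone 3 were higher and 17 lower there (4382 and 4429 of 28542 genes, edgeR). Setdb1 was not among the genes called at 24 h. Setdb1 and Trim28 were named after their values had been seen.

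Of 9 genes that restrict retroelement RNA or DNA, 1 was called lower after induction, where 5.79% of all genes were called lower. Trex1, a cytosolic DNA exonuclease, had 58.4 ± 15.2 normalised counts in the Activator line and 133 ± 12.5 in the Control line (mean ± SD, n = 3; log2 fold change -1.22 ± 0.26, SE). At 12 h 1 was called lower, Apobec3, a cytidine deaminase (-1.29 ± 0.14, SE), where 10.4% of all genes were. Single calls among 9 genes are near these shares. At 24 h none was called higher or lower by edgeR or DESeq2, while in edgeR 7 were lower and none higher on the adjusted p alone (background 26.3% lower, 36.4% higher).

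Markers of other cell types moved with the IAP level in places. The summed level of 2 endothelial markers was 0.261 to 0.513 CPM in uninduced Activator libraries, 5.10 to 18.3 after induction and 24.3 to 32.9 at 12 h, against 0.305 to 0.351 in the Control line at 12 h. Pecam1 accounted for nearly all of it, and Cdh5 did not exceed 0.554 CPM in any library. The summed level of 3 leukocyte markers, mostly Cd68, was 8.45 to 10.7 CPM in the Activator line and 4.67 to 5.44 in the Control line at 12 h. That of 4 pluripotency markers reached 2.58 CPM and that of 2 germline markers 1.48, with Dppa5a, Zfp42 and Dazl at 0 in most libraries, and that of 4 epithelial markers 3.55. The 8 fibroblast markers summed to 15639 to 18001 CPM in the Activator line and 22352 to 23382 in the Control line at 12 h. Whether these markers have a part in the IAP difference was not tested, and a change in the share of cells cannot be told apart from one in RNA per cell.

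The number of families called depended on what the counts were scaled by. When scaled to the 13 mitochondrially encoded mRNAs, the median of all families shifted to -0.36 after induction, -0.46 at 3 h and -0.48 at 6 h, and 7 IAP families were called after induction, 6 higher and 1 lower, in place of 13 higher (10% of all families higher, 32.3% lower). Under that scaling 10, 11, 18 and 13 were called at the 4 later times, all of them higher (12.9%, 12.2%, 19.5% and 14.7% of all families), with IAP medians of 1.02 at 12 h and 0.88 at 24 h. Scaled to all repeat counts, 17 were called higher at 12 h and 13 at 24 h (20.8% and 14.7%).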

How the data were processed

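Total RNA, depleted of ribosomal RNA, was sequenced paired-end with a stranded kit in 36 libraries. The authors trimmed reads with cutadapt, aligned them to GRCm38 with STAR and deposited raw counts per gene and per repeat family from TEtranscripts. How multi-mapping reads were shared and which strand setting was used are not given in the sources used here. One unnamed row (0.0021% to 0.0045% of counts) was left out.

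Libraries were scaled by gene counts with TMM factors. Repeat families (1492 of 1561 passed the filter on low counts) and genes (28542 of 54842) were fitted in edgeR 4.0.16 (R 4.3.3) by the quasi-likelihood test with group and replicate number, over all 36 libraries, with Benjamini-Hochberg adjustment over all families or genes. DESeq2 1.42.0, other scalings, filters and left-out replicates were alternatives. Fits were tested on simulated data. Internal to LTR ratios were compared by two-sided exact permutation tests.

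Families are named by highest mean counts and largest called changes leaving out families that averaged under 100 normalised counts over all 36 libraries, a level that a rise can itself bring about. The members, lists and rules were chosen with earlier results of these data known. The MSR-dCas9-Repressor line was not analysed here.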

Additional observations from a re-analysis of the deposited data

Results flagged for a closer look

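The response of IAP families differed between the Activator and the Control line by the interaction term in edgeR, and these results are listed for that reason. On induction the change was larger in the Activator line for 9 families, where 11.8% of all families were called higher. Among the 9 were IAPLTR4_I (2.82 on the log2 scale), IAPLTR3-int (1.30) and IAPEY3-int (1.21). From uninduced to 24 h it was larger for 15 families, among them IAPLTR4_I (3.64), IAPLTR3-int (2.19), IAPLTR3 (1.93), IAPEY3-int (1.36), IAPEz-int (1.08) and IAPLTR1a_Mm (0.92). Scaled to mitochondrial mRNAs, edgeR no longer called IAPEY3-int on induction (0.82, adjusted p = 0.0548), nor IAPEz-int (0.79, adjusted p = 0.141) and IAPLTR1a_Mm (0.65, adjusted p = 0.296) from uninduced to 24 h. Both differences use the uninduced libraries, and the lines also differed in the length of doxycycline exposure.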

How the results depend on the processing

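The number of IAP families called moved most with scaling and with the limit on size. Scaled to mitochondrial mRNAs, 7 were called between the lines after induction, 10 at 3 h, 11 at 6 h and 13 at 24 h, 3 for the difference on induction, 22 from induced to 24 h in the Activator line and 7 for the difference from uninduced to 24 h. Scaled to all repeat counts, 13 were called at 24 h and 3 from induced to 24 h. With a limit of 1 on the log2 fold change, 6, 14 and 13 were called after induction, at 3 h and at 24 h. Within the Activator line 6 and 4 were called on induction and from induced to 24 h. For the differences on induction and to 24 h, 4 and 9 were called. No share of all families was worked out at that limit, so these counts cannot be set against a background. Shares for the other settings are given above. With only the compared groups in the fit, 1 was called before induction and 7 after it. The summed level, on the log2 scale, was 0.044 after induction with mitochondrial scaling and 0.77 at 24 h with scaling to all repeats. The cause was not tested.

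Direction turned for families that were not called. Scaled to mitochondrial mRNAs, the difference on induction was -0.19 for IAPEz-int and -0.29 for IAPLTR1a_Mm, and the value after induction -0.27 for IAPLTR1_Mm and -0.064 for IAPLTR1a_Mm. Without TMM the difference on induction for IAPLTR1a_Mm was -0.0055. IAPEY4_I-int was at 0.055 after induction with DESeq2 or its size factors, and at -0.066 for the difference to 24 h with scaling to all repeats. With 1 library left out, IAPEY4_I-int ranged from -0.29 to 0.24 after induction, IAPLTR1_Mm from -0.055 to 0.26 after induction and from -0.39 to 0.043 for the difference on induction, and IAPLTR1a_Mm from -0.12 to 0.20 for that difference.

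Of the silencing genes, 4 were called after induction without TMM, 6 with mitochondrial scaling and 14 with no limit on size, and 23 at 24 h with no limit. Of the restriction genes, 2 and 3 were called after induction with mitochondrial scaling and with no limit, and 1 and 7 at 24 h. On the adjusted p alone (edgeR), 2 silencing genes were higher and 12 lower after induction, where 31.6% and 25.8% of all genes were. At 24 h 4 were higher and 19 lower (36.4% and 26.3% of all genes). The restriction genes called on the adjusted p alone were all lower at both times. No share of all genes is given without TMM or with mitochondrial scaling, so those counts have no background beside them.

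The labels do not say what a replicate number marks. Across the lines 11 of 18 same-numbered pairs had a correlation above 0.1 over repeat families (-0.116 to 0.381), and 27 of 36 libraries correlated best with their own number (33 over genes), a hint from the data and not from the design. A fit with no replicate block called 13, 22, 24, 25 and 21 families from induction to 24 h, as the fit with the block did.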
